A study of Homo sapiens with 30 samples.

Results

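A set of 419 wide chromatin regions in wild-type human neural progenitor cells had RNF2 called in both replicate sets and RING1 in one of them only. They were chosen by measured peak calls: of the 4255 regions in the authors' consolidated file, a member is 5000 bp wide or wider, overlaps at least 1 RING1 peak of the first set and overlaps no RING1 peak of the second. The cells were unedited and came from the established human embryonic stem cell line H9, grown as a neural progenitor monolayer in N2/B27/FGF medium with no other treatment. The series holds 30 CUT&RUN libraries, in which an antibody-tethered nuclease releases the DNA around a protein, from wild-type cells and 4 edited RING1 or RNF2 genotypes made with CRISPR-Cas9. Only the 4 wild-type RING1 and RNF2 libraries enter here; the edited genotypes (homozygous and heterozygous RING1 missense, RING1 knockout and homozygous RNF2 missense), the H2AK119ub1 libraries and the IgG libraries were not analysed here.

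RING1 and RNF2 are the alternative catalytic subunits of Polycomb repressive complex 1 (PRC1), which attaches a single ubiquitin to histone H2A. Canonical PRC1 holds a CBX protein that binds the H3K27me3 mark placed by Polycomb repressive complex 2, while variant PRC1 reaches CpG-rich promoters by other routes. In neural progenitors PRC1 is known for broad domains over genes of other lineages and over genes of regional identity, which are held silent or poised until a later stage.

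The 4 peak lists form 2 pairs, each of 1 RING1 and 1 RNF2 list with a common number in the file name; as the labels tie neither pair to a replicate, they are called set A and set B. The RING1 list of set B stood apart before any region was chosen, with 659 peaks against 12891 in set A, while the RNF2 lists held 5901 (set B) and 16263 (set A). The depth of these libraries is unknown, and a region with no set B RING1 call may still hold RING1. Among the 4255 consolidated regions, 90.5% overlapped a set A RING1 peak and 7.19% a set B RING1 peak, and the rule used both, so nothing is read from either share at the members. The consolidated regions were the merged peaks of the 4 lists in which at least 1 antibody was called in both sets; every member therefore had RNF2 in both sets by construction. With the set B RING1 condition dropped, 704 wide regions qualified in place of 419.

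The sequences below show what lay under the strongest members. For the first 5 genes in order of RNF2 strength whose start lay in a member and had an entry, the 250 bases before the start are given 5′ to 3′ on the gene's strand (RefSeq, GRCh38.p14), with CG dinucleotides in capitals; FEZF2 and SIX3 rank ahead of them.
LHX2 promoter, chr9:124011518-124011767, plus strand: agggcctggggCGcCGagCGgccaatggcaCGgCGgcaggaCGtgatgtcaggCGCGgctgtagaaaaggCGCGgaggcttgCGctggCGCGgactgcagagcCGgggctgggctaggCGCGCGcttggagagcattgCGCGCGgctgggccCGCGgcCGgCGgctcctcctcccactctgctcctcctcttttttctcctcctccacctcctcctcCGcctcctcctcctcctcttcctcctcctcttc
NEUROG1 promoter, chr5:135535965-135536214, minus strand: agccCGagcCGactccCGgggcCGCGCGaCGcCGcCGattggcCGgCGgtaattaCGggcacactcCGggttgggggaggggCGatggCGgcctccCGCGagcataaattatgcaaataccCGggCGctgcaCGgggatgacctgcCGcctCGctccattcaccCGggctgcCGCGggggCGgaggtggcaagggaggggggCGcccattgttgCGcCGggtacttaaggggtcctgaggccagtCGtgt
TRIM36 promoter, chr5:115180295-115180544, minus strand: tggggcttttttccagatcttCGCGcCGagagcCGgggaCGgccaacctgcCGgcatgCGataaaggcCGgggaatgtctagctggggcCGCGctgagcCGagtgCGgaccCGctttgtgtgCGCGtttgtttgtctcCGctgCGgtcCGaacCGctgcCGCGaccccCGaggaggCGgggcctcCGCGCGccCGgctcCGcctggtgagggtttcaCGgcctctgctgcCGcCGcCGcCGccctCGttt
FOXB1 promoter, chr15:60004061-60004310, plus strand: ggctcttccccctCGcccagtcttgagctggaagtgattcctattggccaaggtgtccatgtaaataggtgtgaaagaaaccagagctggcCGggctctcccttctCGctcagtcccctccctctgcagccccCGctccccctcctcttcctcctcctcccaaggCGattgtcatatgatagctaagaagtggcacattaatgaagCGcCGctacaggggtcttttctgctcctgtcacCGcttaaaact
OTX1 promoter, chr2:63050580-63050829, plus strand: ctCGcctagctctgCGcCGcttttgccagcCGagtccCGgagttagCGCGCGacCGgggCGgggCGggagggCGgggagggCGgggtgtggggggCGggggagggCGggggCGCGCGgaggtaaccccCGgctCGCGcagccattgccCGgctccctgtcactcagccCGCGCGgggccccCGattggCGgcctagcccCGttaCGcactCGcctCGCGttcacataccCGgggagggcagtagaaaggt
These 250 bases held 25 CG dinucleotides at LHX2, 30 at NEUROG1, 34 at TRIM36 and 33 at OTX1, against 8 at FOXB1. FOXB1, a forkhead factor gene of the diencephalon, thus combined the CG-poorest of the 5 printed windows with a set A RNF2 fold enrichment of 12.5, which ranked 2 among all members.

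Over all listed starts the members were CG-rich, as consolidated regions were in general. RefSeq windows of 300 bases (250 before and 50 after a start) were at hand for 416 starts of 293 genes in members, with a median GC content of 66.8%, a median of 26 CG dinucleotides (25th to 75th percentile 18 to 35) and an observed over expected CG ratio of 0.819. Starts in all consolidated regions had 68.3% GC and 29 CG, wide regions with RING1 in both sets had 63.3% and 22, and all 22199 protein-coding windows had 62.3% and 21. The GC-box letters GGGCGG, read on both strands, occurred in 73.3% of member windows against 77.4% of windows in consolidated regions and 56.3% of all windows. The E-box CACGTG was in 9.86% of member windows, 10.9% of windows in consolidated regions and 8.34% of all windows. In the same order, GCGGGAA was in 8.17%, 11.5% and 8.13%. GCCATNTT, searched on both strands, was in 3.85%, 6.23% and 7.37%. GGGCGG and GCGGGAA can share bases, and a match says only that the letters are present.

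MicroRNA hairpins lay in 16 of the 419 members, 18 hairpins in all, out of 1562 listed hairpins. Another 18 lay in 14 of the 285 wide regions with RING1 in both sets. Hairpins in all consolidated regions were not counted, so no link of members to microRNA genes is read from these counts. The following were picked after the values were seen because each is known from neural tissue or shares its seed with another member's microRNA. Mature sequences are given 5′ to 3′ (RefSeq, GRCh38.p14) with the seed, bases 2 to 8, in capitals.
hsa-miR-9-5p: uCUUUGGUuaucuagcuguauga
hsa-miR-137-3p: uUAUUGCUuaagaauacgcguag
hsa-miR-129-5p: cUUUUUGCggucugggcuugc
hsa-miR-132-3p: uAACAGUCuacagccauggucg
hsa-miR-212-3p: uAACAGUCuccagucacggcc
hsa-miR-2682-5p: cAGGCAGUgacuguucagacguc
hsa-miR-449c-5p: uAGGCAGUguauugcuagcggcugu
MIR132 and MIR212 lay in 1 member on chromosome 17 beside HIC1 and share the seed AACAGUC. MIR2682, in the same member of chromosome 1 as MIR137, and MIR449C, in the CDC20B member of chromosome 5, share AGGCAGU. The brain microRNA miR-9 is made from 3 loci: MIR9-1 and MIR9-3 lay in members, and MIR9-2 lay in a region of 42953 bp with RING1 in both sets.

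The microRNA members varied in strength. At MIR9-1 (chromosome 1, 156418804 to 156423804, hg38) the highest fold enrichment was 5.99 for set A RNF2, 4.46 for set B RNF2 and 4.95 for set A RING1. At MIR9-3 (chromosome 15, 89365560 to 89381037) the same 3 values were 6.69, 3.59 and 4.99. The MIR9-2 region with RING1 in both sets had 13.9, 7.21 and 10.005, above both members in each list. The MIR137 member had 4.99, 3.69 and 4.49, the MIR129-2 member 6.20, 4.37 and 4.78, and the MIR132 and MIR212 member 9.79, 4.80 and 6.80.

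Fold enrichment here and below is the authors' own value for a peak, signal over background as their peak caller gave it, and the highest value among the peaks that overlap a region. It orders regions within 1 list, and between sets a member's ranks among the 419 are set side by side. The choice of members to name is the exception: it orders them by the smaller of their RNF2 values in sets A and B, although the scales of the 2 lists may differ. The members were weaker than the other wide regions in each list. Their median fold enrichment was 5.75 for set A RNF2 (range 3.47 to 12.7), 4.23 for set B RNF2 (3.01 to 7.78) and 5.002 for set A RING1 (3.35 to 9.90). The 285 wide regions with RING1 in both sets, 272 of which had RNF2 in set B, had medians of 11.1, 6.16 and 8.11. Narrower regions with RING1 of set A only, 3124 in number, had 4.84, 3.76 and 4.38, so the members lay between these groups in each list. The spans overlapped throughout, and no test was made, since the rule used the RING1 calls and the lists come from the same libraries.

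Width and strength moved with membership. The median member was 6790 bp wide (5001 to 32123), against 17416 bp for wide regions with RING1 in both sets. When the members and the wide regions with RING1 in both sets were pooled (704 regions) and split into 5 equal groups by RNF2 fold enrichment in set A, 100% of the weakest group and 2.84% of the strongest were members. By RNF2 in set B, over those with such a peak, the share fell from 88.5% to 7.97%, and by RING1 in set A from 97.2% to 3.55%. The difference remained within bins of width. From 5 to 10 kb the 349 members had median RNF2 values of 5.69 (set A) and 4.17 (set B), against 8.34 and 5.00 in 51 regions with RING1 in both sets. From 10 to 20 kb 54 members had 6.41 and 4.64 against 10.6 and 5.86 in 117 regions, and at 20 kb or more 16 members had 6.32 and 5.91 against 13.8 and 6.73 in 117 regions. The part of signal strength and width in the missing set B RING1 calls was not tested.

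**Figure D1:**
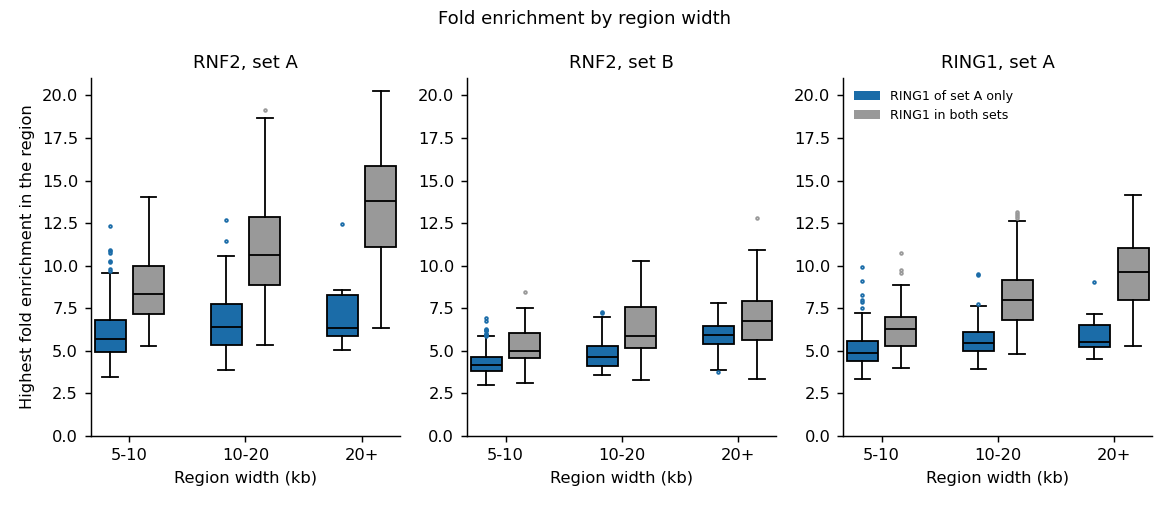
Highest fold enrichment per region (vertical axis) by region width in kb (horizontal axis) for RNF2 in set A, RNF2 in set B and RING1 in set A; boxes give the median and quartiles over regions, whiskers reach 1.5 times the box height and points lie beyond. Blue boxes are the 419 members, grey boxes the 285 wide regions with RING1 in both sets, and in each width bin the blue median is lower.

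RNF2 of set A covered nearly the whole of most members, while the other lists covered parts. The regions are merged peaks, and RNF2 of set A had the most bases under peaks (28.2 Mb). Its high coverage is thus partly built into the bounds of the regions. The median share of a member's bases under a peak was 99.8% for RNF2 in set A, 64.3% for RING1 in set A and 55.3% for RNF2 in set B. In wide regions with RING1 in both sets, which were wider, RING1 of set A covered 80.3% and RNF2 of set B 71.7%. For RNF2 of set B the order depended on width. Members had 53.2% against 73.1% from 5 to 10 kb and 62.7% against 68.3% from 10 to 20 kb. At 20 kb or more they had 93.3% against 72.5%. For RING1 of set A members were lower in each bin. A single RNF2 peak of set A overlapped 398 of the 419 members, and RNF2 of set B formed 1 peak in 323 and several in 96. RING1 of set A formed 1 peak in 263 and several in 156. Across members, fold enrichment ranked most alike for the 2 antibodies of set A (Spearman's rho 0.761, 419 regions), and less for RNF2 of set A against set B (0.447) and RING1 of set A against RNF2 of set B (0.410). The lists of a set may share a control, and whether they do is not stated, so these correlations are descriptions only.

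Members around genes of the early forebrain led by RNF2 strength, when ranked by the smaller of the values in sets A and B. FEZF2, a zinc finger factor gene of the forebrain and of deep-layer cortical neurons, came first: its member (chromosome 3, 62364669 to 62381448, hg38) had an RNF2 value of 8.85 in set A, one of 6.97 in set B and a set A RING1 value of 6.10. SIX3, a homeobox gene of the anterior neural plate and eye field, had 8.002, 6.78 and 5.61 over 22661 bp (chromosome 2, 44924594 to 44947254). LHX2, a LIM homeobox gene of cortical progenitors, had 8.33, 6.56 and 6.56 over 26915 bp (chromosome 9, 123996993 to 124023907). All 3 members covered the whole or the start of their gene and ranked within the first 60 of 419 in both RNF2 lists.

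NEUROG1, a proneural bHLH gene, had RNF2 values of 8.70 and 6.56 and a RING1 value of 7.75 over 17951 bp. FOXB1 had 12.5, 6.41 and 9.05 over 24189 bp, among the highest values of the members in each list. TRIM36, a ubiquitin ligase gene, reached 6.49 and 6.77 in a member of only 5226 bp. Further leading members lay at OTX1 with its neighbour EHBP1, at FOXI3, OTX2, DSP and ZNF536, at a cluster of KDM6B, TMEM88, NAA38 and CYB5D1, and inside PDE10A. DSP encodes desmoplakin of cell junctions, and KDM6B an H3K27 demethylase, so the leading members were not transcription factor genes alone.

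**Figure D2:**
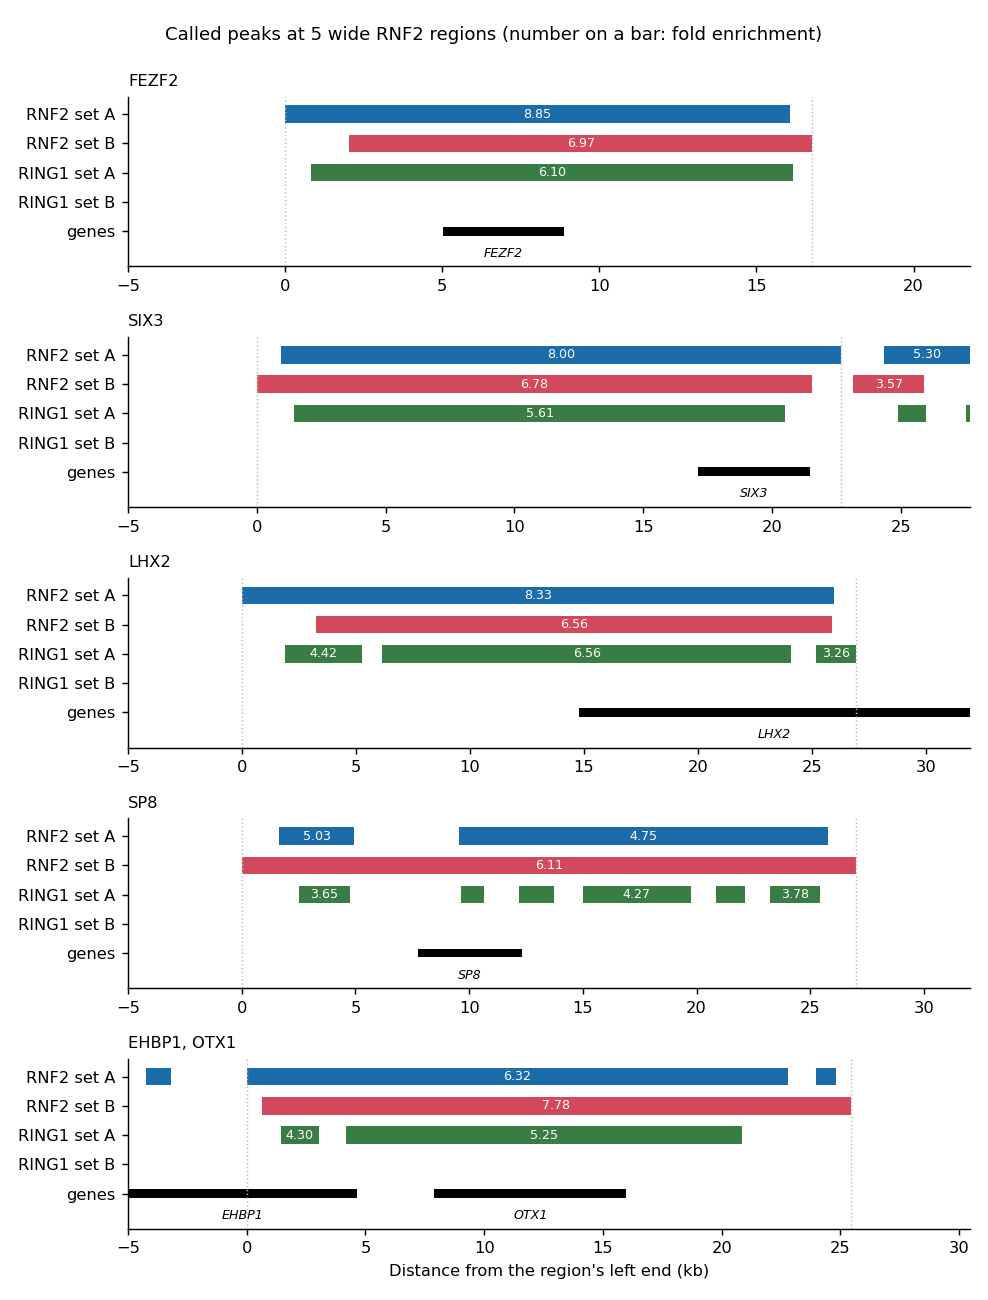
Called peaks at 5 members (FEZF2, SIX3, LHX2, SP8 and OTX1 with EHBP1) against distance from the left end of the region in kb; bars are peaks of the named list with their fold enrichment, dotted lines mark the ends of the region and black bars are genes. RNF2 of set B runs as 1 long block in each region, RNF2 of set A leaves a gap over part of the SP8 gene, RING1 of set A is in 1 to 6 blocks, and the row for RING1 of set B is empty in each panel.

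The 5 widest members included further forebrain genes. SP8, a zinc finger gene of telencephalic patterning, had a member of 27002 bp with RNF2 at 5.03 (set A) and 6.11 (set B) and RING1 at 4.51. LHX2 came next, then OTX1 at 25439 bp and the divergent pair ZIC4 and ZIC1 at 25049 bp with 6.33, 3.87 and 4.63. SP8 was thus wide and of low rank by RNF2 in set A (314 of 419), but ranked 17 in set B.

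RING1 of set A was highest at other members. DBP, a circadian transcription factor gene, with CA11 on chromosome 19 had a RING1 value of 9.90 and RNF2 values of 10.2 and 5.28 over 5934 bp. A member of 15237 bp at LOC124905135 on chromosome 22 had 9.48 for RING1 but 5.10 and 4.82 for RNF2, ranks of 2, 299 and 103. A member on the X chromosome (40003828 to 40015765), with no coding gene end and an end of LINC03053, had 9.45 for RING1 and the highest RNF2 value of all members in set A, 12.7, against 5.26 in set B. The next, inside CACNG8, a calcium channel subunit gene, and holding MIR935, had 9.09, 8.33 and 5.69.

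Neural progenitor markers were the list most often found at members. Of 29 listed markers 14 (48.3%) had an end within 2 kb of a member, where 2.11% of all protein-coding genes did (423 of 20037). Another 5 (NR2E1, NR2F1, NR2F2, PAX6 and ZIC2) lay at wide regions with RING1 in both sets, where 1.57% of all genes lay (314 of 20037), 1 at a narrower region and 9 at no region. The 9 were CDH2, DACH1, FABP7, HES5, MSI1, MSI2, NES, SOX11 and VIM, of which NES and VIM are intermediate filament genes. The list was drawn up with earlier results of these data known, and peak lists measure no expression, so the markers cannot check the cell type. The 14 genes lay in 15 members, as SIX3 had a second member of 9280 bp beside its first.

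Of the 15 members with progenitor markers, 11 ranked higher by RNF2 in set B than in set A and the other 4 lower, against 204 of all 419 members ranked higher in set B. Of the 15, 8 were in the first 50 of 419 in set B and 2 in the first 50 in set A, and 8 were among the 16 members of 20 kb or more. Those 16 had an RNF2 median of 5.91 in set B against 4.23 over all members, and of 6.32 against 5.75 in set A, and 11 of them ranked higher in set B, so marker genes and width cannot be told apart here. OTX1, a homeobox gene of forebrain and midbrain, had an RNF2 value of 6.32 in set A (rank 152) and 7.78 in set B (rank 1). Its paralog OTX2 had 6.22 (rank 160) and 7.25 (rank 2). SOX2, which maintains neural stem cells, had 3.87 (rank 412) and 5.01 (rank 78), and its member of 7814 bp had 34.6% of its bases under set A RNF2 peaks and 69.0% under set B ones. These 3 members stood higher in the order of set B.

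The markers that ranked lower in set B included 3 of the named genes. HES1, the Notch effector that keeps progenitors undifferentiated, had 7.96 in set A (rank 57) and 3.67 in set B (rank 362). SOX9, a gliogenic factor gene, had 6.31 (rank 153) and 3.37 (rank 402), and ZIC1 had 6.33 (rank 151) and 3.87 (rank 306). LHX2 (ranks 45 and 9), EMX2 (49 and 24), SOX1 (51 and 26) and SIX3 (55 and 7) were high in both lists and higher in set B, and SOX3 (386 and 267) was in the lower part of both. With 1 list per set these differences in rank have no replicate check.

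**Figure D3:**
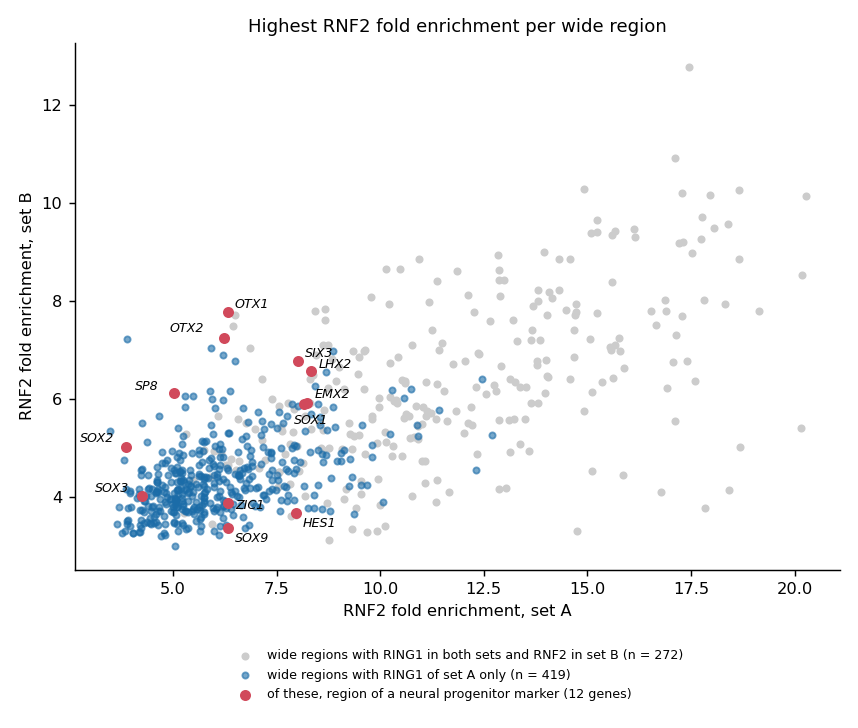
Highest RNF2 fold enrichment per wide region in set A (horizontal axis) and set B (vertical axis); blue points are the 419 members, red points the members of neural progenitor markers named in the text, and grey points the 272 wide regions with RING1 in both sets that also had RNF2 in set B. OTX1 and OTX2 sit above 7 in set B at a middle value in set A, and HES1 and SOX9 sit below 4 in set B.

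Among all members 19 were in the first 50 of both RNF2 lists. In the first 50 of set B but past rank 209 in set A were 7: SOX21, SP8, MEIS1, FEZF1, SALL1, OVOL2 and SLITRK3. SOX21, a SOX factor gene of neural progenitors, was the extreme, with 3.88 in set A (rank 411) and 7.22 in set B (rank 3). The reverse held for 8 members: those of LHX5, of RTBDN with MAST1, of LOC124904106 inside KDM6B, of PDGFRA, of NFATC1 and of EYA4, one inside ZFHX3 and one on chromosome 13 with no coding gene end. LHX5, a LIM homeobox gene of the hypothalamus and hippocampal border, had 10.1 in set A (rank 11) and 3.89 in set B (rank 301). The limits of 50 and 209 were chosen after the ranks were seen.

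Counts of transcription factor families differed between members and the wide regions with RING1 in both sets, and were not tested. None of 39 HOX cluster genes and none of 9 PAX genes lay at a member, whereas 39 and 8 lay at wide regions with RING1 in both sets. HOX genes share regions: one of 149947 bp holds the HOXC genes and one of 132153 bp the HOXD genes. The 39 genes are thus not 39 separate observations. As few of all protein-coding genes lay at members, nothing is read from these zeros. Of 149 other homeobox genes 32 (21.5%) lay at members and 78 (52.3%) at the other wide regions. The homeobox members beyond those above included GSX2 (RNF2 8.49 and 5.90), MKX (8.85 and 5.84), EVX1 (8.55 and 5.47), POU3F2 (5.92 and 5.46) and RAX (6.75 and 5.24). GSX2 patterns the ventral telencephalon, and RAX acts in the eye field and retina. SOX genes had the opposite split, with 6 of 19 (31.6%) at members, SOX1, SOX2, SOX3, SOX7, SOX9 and SOX21, and 2 (10.5%) at wide regions with RING1 in both sets.

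Forkhead genes lay at members in 5 of 44 cases (among them FOXB1, FOXI3, FOXO3 and FOXQ1) and at the other wide regions in 15. For T-box genes the counts were 2 (TBX1 and TBXT, the mesoderm factor brachyury) and 9 of 17. The bHLH genes were split 16 and 18 of 66, with NEUROG1, LYL1 (7.56 and 5.73), OLIG1 (9.06 and 4.72) and TWIST2 (5.63 and 4.46) first among the 16 by the smaller RNF2 value. Zinc finger developmental factors were split 16 and 23 of 69, led by FEZF2, INSM2 (8.01 and 5.86), FEZF1 (5.29 and 6.05) and SALL1 (5.29 and 5.83). TFAP2, EBF and related factors were split 8 and 13 of 38, led by NFIX, which shares its member with LYL1, and DMRT1 (8.53 and 5.63). Each of these shares at members was above the 2.11% over all genes; no list was tested, and the lists were made with results of these data known.

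**Figure D4:**
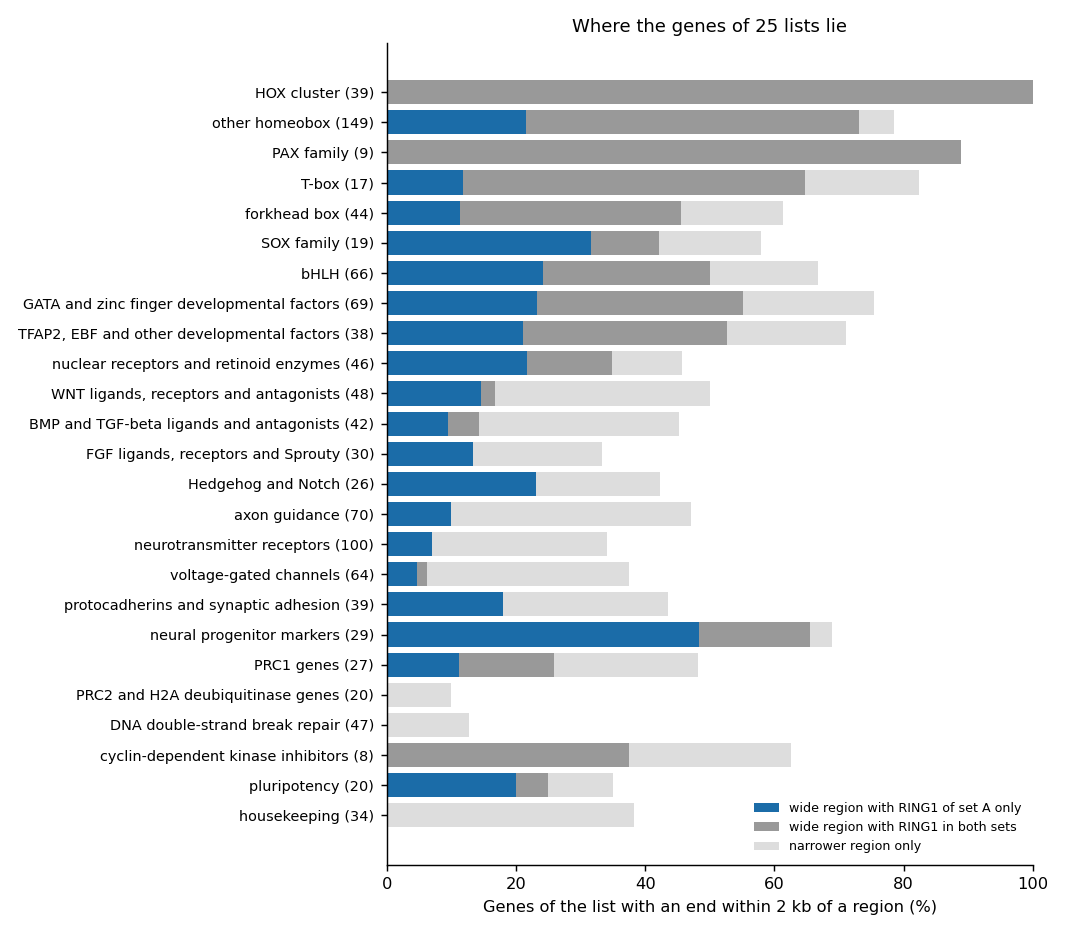
Percent of the genes of each of 25 lists (horizontal axis; list size in parentheses) with an end within 2 kb of a member (blue), of a wide region with RING1 in both sets (dark grey) or of a narrower region only (light grey); a gene at both wide kinds is counted as blue. HOX and PAX genes lie at the dark grey regions, neural progenitor markers have the longest blue bar, and repair and housekeeping genes have no wide region.

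More signalling genes of each list lay at members than at wide regions with RING1 in both sets, by counts that were not tested. Members also held more of all protein-coding genes (2.11% against 1.57%). At narrower regions only lay 16 WNT, 5 Hedgehog and Notch, 6 FGF, 13 BMP and TGF-beta and 5 retinoid enzyme and nuclear receptor genes. Among WNT ligands, receptors and antagonists 7 of 48 (14.6%) lay at members and 1 (2.08%) at the other wide regions. These were RSPO2 (RNF2 9.55 and 5.47 in the 2 sets), which amplifies WNT signals, the ligand genes WNT11 (5.23 and 5.24), WNT7B (6.59 and 4.42) and WNT1 (5.21 and 3.98), the receptor genes FZD8 (6.85 and 4.83) and FZD1 (5.21 and 4.06), and the stem cell receptor gene LGR5 (3.47 and 5.34). LGR5 had the lowest RNF2 value of all members in set A and rank 54 in set B.

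Of 26 Hedgehog and Notch genes 6 (23.1%) lay at members and none at the other wide regions: the ligand genes SHH (8.60 and 4.87) and IHH, the Notch ligand genes DLL4 (6.66 and 5.18) and DLL3 (5.22 and 4.49), and the Hedgehog receptor and decoy genes PTCH1 (4.46 and 4.01) and HHIP. FGF genes gave 4 of 30 and none, namely FGF11, FGF5, FGF9 and FGF8, the last a patterning signal of the midbrain border and forebrain (5.10 and 4.14). BMP and TGF-beta genes gave 4 and 2 of 42, with BMP4 (9.28 and 4.77) and its antagonist gene NOG (5.26 and 4.15) among the 4. Retinoid enzymes and nuclear receptors gave 10 and 6 of 46. The 10 included ALDH1A2, which makes retinoic acid (5.90 and 6.17), and the enzymes that degrade it, CYP26B1 (9.80 and 5.06) and the neighbours CYP26A1 and CYP26C1, which share a member of 19465 bp.

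Genes of neuronal wiring and synapses lay at members in shares of 4.69% to 17.9% per list, where 2.11% of all protein-coding genes lay. At the other wide regions they lay in at most 1 case per list, and no list was tested. Axon guidance genes gave 7 of 70 at members (PLXNB2, EFNA3, EPHA5, NTN3, SLIT2, ROBO3 and NTN4), none at the other wide regions and 26 at narrower regions only. Neurotransmitter receptor genes gave 7 of 100, led by the serotonin receptor gene HTR2C (7.91 and 5.06), with 27 at narrower regions only. Protocadherin and synaptic adhesion genes gave 7 of 39, with PCDH17, SLITRK3, PCDH10 and PCDH7 first, and channel genes gave 3 of 64 (among them KCNG3 and CACNA2D3). Against medians of 5.75 and 4.23 over all members, the receptor members had lower RNF2 medians in both sets (5.06 and 3.85), and the axon guidance members a lower one in set A and a higher one in set B (5.24 and 4.55).

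Polycomb genes themselves lay at 3 members, out of 27 PRC1 genes. These included PCGF1 of variant PRC1 (7.52 and 4.34, in a member shared with LBX2) and BCORL1 (4.80 and 4.19), and 5 PRC1 genes lay at wide regions with RING1 in both sets. None of 20 genes of PRC2 and H2A deubiquitinases lay at a wide region of either kind. The same held for 47 genes of DNA double-strand break repair and 34 housekeeping genes. At narrower regions only lay 2, 6 and 13 genes of these lists, in that order. Over all protein-coding genes 2.11% lay at members and 1.57% at the other wide regions, so nothing is read from a zero in lists this short. Of 8 cyclin-dependent kinase inhibitor genes none lay at a member, 3 at the other wide regions and 2 at narrower regions. Of 20 pluripotency genes 4 lay at members, including KLF5 (7.36 and 4.90), KLF4 (7.31 and 4.46) and SOX2, and 1 at the other wide regions.

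The share of members at gene ends was close to that of all consolidated regions. An end of a protein-coding gene was inside or within 2 kb of 330 members (78.8%), against 79.7% of all consolidated regions, and a listed gene start was inside 268 members (64.0%), against 65.0%. One gene had its end at 257 members, 2 genes at 52, and 3 or more at 21. An end here is an outer end of the annotated gene, so an inner start can lie elsewhere. Of the 89 members with no coding gene end, 36 lay inside a coding gene and 53 outside; 19 of the 53 had an end of a long non-coding RNA gene, 6 a microRNA gene, 6 a tRNA gene and 21 no annotated gene end within 2 kb. A listed start of a coding gene lay inside 20 of the 89. The strongest of the 89 lay inside PDE10A (chromosome 6, 165660193 to 165667797, RNF2 6.21 and 5.98), SLC30A3 (5.95 and 6.002) and RGS20 (6.70 and 5.81), of which the first 2 hold listed starts of those genes, at 2 long non-coding RNA genes on chromosome 10 (11.4 and 5.78) and in a stretch of chromosome 6 with no annotated gene end (41368955 to 41378003, 7.06 and 5.73).

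Around a gene start, peaks at members reached further into the gene than away from it. In the 183 members with exactly 1 listed start, the region extended a median of 3071 bp upstream and 4081 bp downstream, and 113 (61.7%) reached further downstream. The start itself lay under an RNF2 peak of set A in 177 (96.7%), a RING1 peak of set A in 170 (92.9%) and an RNF2 peak of set B in 139 (76.0%). At 2 kb upstream and 2 kb downstream of the start, 65.0% and 84.7% of these members were under an RNF2 peak of set A. For RING1 of set A the shares were 42.1% and 56.8%, and for RNF2 of set B 36.6% and 52.5%. All 3 lists peaked within 200 bp of the start. These members were picked for holding the start, and the regions are merged peaks. High coverage at the start and a fall on both sides are thus largely built in. No other group of regions is set beside them here, so the profile is a description only.

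**Figure D5:**
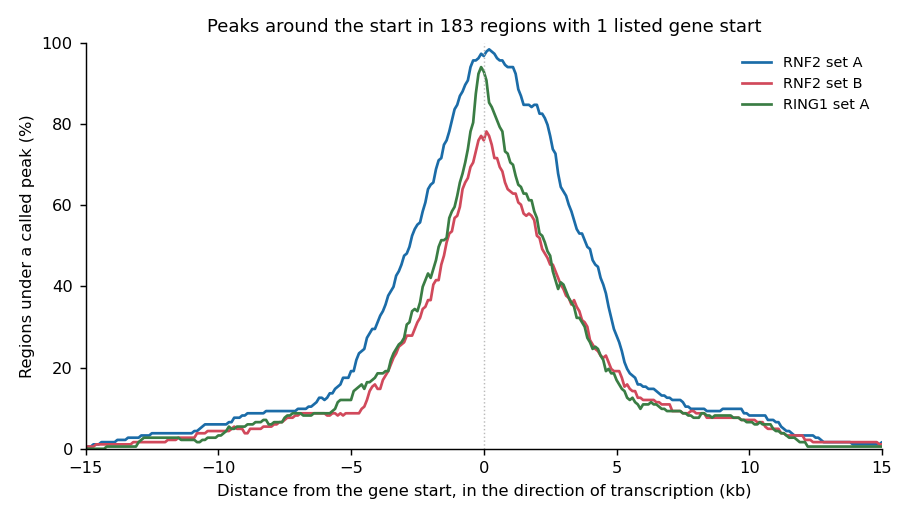
Percent of the 183 members with 1 listed gene start that are under a called peak (vertical axis) by distance from the start in kb, positive in the direction of transcription (horizontal axis), for RNF2 in set A, RNF2 in set B and RING1 in set A. Each curve peaks within 200 bp of the start, at 98.4%, 78.1% and 94.0%, and falls more slowly on the downstream side. A maximum near the start is largely built in, as each region was picked for holding it.

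Transfer RNA genes lay at 12 of the 419 members, 6 of them on chromosome 6, and at 4 of the 285 wide regions with RING1 in both sets. The share over all consolidated regions was not counted, so no link of members to tRNA genes is read from these counts. The strongest, with TRV-AAC4-1 and TRT-AGT2-2 (chromosome 6, 27675765 to 27682709), had RNF2 values of 7.36 and 5.48 (sets A and B) and lay 32 bp from a wide region with RING1 in both sets. The other 5 on chromosome 6 had set A values of 3.70 to 4.87.

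A minority of members lay near the stronger regions. Within 50 kb of a wide region with RING1 in both sets lay 35 members (8.35%). The share of other consolidated regions this near was not counted, so 8.35% is not read as an excess. Within 10 kb of a set B RING1 peak lay 6 members, the nearest at 2188 bp, and the median distance to such a peak was 1985 kb. EVX1, an even-skipped homeobox gene, lay 14856 bp from the region over the HOXA genes, and another member with no coding gene end lay 414 bp from it. OLIG1 lay 32267 bp from the region of its paralog OLIG2, so these neighbouring paralogs were in different groups.

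The width limit of 5000 bp cut through a continuous range. Just inside it were the MIR9-1 member (5001 bp), a member at RPL23A, TLCD1 and NEK8 (5001 bp; RNF2 7.68 and 4.23, RING1 6.44) and one at INSRR (5002 bp; 4.64, 4.16 and 5.11). Just outside were regions at NEFL (4998 bp; 6.66, 4.34 and 5.42), CABLES1 (4993 bp; 4.29, 3.87 and 3.80) and NPY (4992 bp; 5.62, 3.51 and 4.20).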

How the data were processed

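Per the labels' protocols, libraries came from a kit for CUT&RUN and were read on a NextSeq. Tools in the submitters' processing notes, listed with neither role nor options, are MACS2 2.2.9.1, deepTools 3.5.2, bedtools 2.30.0, Picard 2.8.1, SAMtools 1.9 and BWA 0.7.17, with build hg38. Control and depth are not given in the sources used here. From these the authors deposited 1 broad peak list per antibody and set, with a fold (a ratio of signal over background) and a −log10 q-value per peak, and a consolidated region file of positions only.

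Peaks and regions on chromosomes 1 to 22, X and Y were joined by an overlap of at least 1 bp, and each region took the highest fold and −log10 q of its peaks in a list. Genes (20037 protein-coding; RefSeq, GRCh38.p14, which hg38 corresponds to) were joined where an end lay inside or within 2 kb, so a region can count for several genes. All 1070 entries of the 25 gene lists matched. With 2 lists per antibody and no reads, no test was run. The members and lists were chosen with earlier results of these data known.

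Members named are the 15 with the largest smaller-of-both RNF2 fold, the 5 widest, the 4 highest by set A RING1, the 5 strongest without a coding gene end, 3 on either side of the width limit and up to 4 genes per list; a few of these are not reported here, and other genes named complete a count or were chosen after their values were seen. The labels do not say whether replicates are separate cultures. The member step was tested on simulated data: of 500 simulated regions 93 were planted members, and 93 of these and 0 others were found. Software was matplotlib 3.10.9, SciPy 1.17.1, pandas 2.3.3, numpy 2.4.6 and Python 3.11.15.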

Additional observations from a re-analysis of the deposited data

How the results depend on the processing

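The number of members depended on the width limit and on the set B RING1 list. At 3000 bp there were 1055 members with median RNF2 fold enrichments of 5.30 and 4.004 (sets A and B) and 1065 coding genes; at 10000 bp there were 70, with 6.33, 4.85 and 74 genes. With only peaks at a −log10 q of at least 5, 397 regions qualified, 144 of them shared with the 419. By the rule, the others were wide regions with RING1 in both sets whose set B RING1 peaks fell below the cut. The highest −log10 q in that list was 6.17, so the similar number does not stand for the same regions. Of the 397, 61.5% had RNF2 in both sets, with medians of 9.67 and 6.35. Dropping set A or set B from the rule in turn gave 423 to 704 regions, 98.2% to 100% with RNF2 in both sets, set A medians of 5.75 to 7.13, set B medians of 4.22 to 4.71, and 426 to 731 genes. Counting any overlap with a gene body raised the share at coding genes to 85.9%. Windows of 0, 1 and 5 kb moved none of the 25 list counts by over 1.5 times, the width limit of 3000 bp moved 11, that of 10000 bp moved 18, and listed gene starts alone moved 4 (zinc finger factors 8, WNT 4, BMP 2 and PRC1 genes 1). The causes were not tested. An overlap of 50% of the shorter gave the same 419. This outcome was fixed, as the regions are merged peaks and each overlapping peak lies inside its region. No paired analysis was possible because the results come from no test and the lists carry no replicate number.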
